A study of Mus musculus with 8 samples.

Results

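The genes for the keratin-associated proteins of mouse chromosome 16 were measured in paw skin after an injection of PACAP. Members were the non-control array probes whose gene name in the files begins with Krtap and whose mm9 coordinates lie on chromosome 16, together with the probes of 2310034C09Rik and 1110025L11Rik, which lie within the same cluster. This gave 31 of 39429 probes and 24 of 29608 gene names. The probes span 959 kb, at chr16:88611735-89570882, with 19 genes on the minus strand and 5 on the plus strand. By family name, 15 genes belong to high glycine-tyrosine families (Krtap6, Krtap7, Krtap8, Krtap16, Krtap19, Krtap20, Krtap21 and Krtap22) and 7 to high sulfur families (Krtap11, Krtap13, Krtap14, Krtap15, Krtap24 and Krtap26), and the 2 Rik genes were not classed.

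Keratin-associated proteins form the matrix in which the keratin filaments of the hair shaft are embedded. High sulfur members are rich in cysteine and crosslink that matrix by disulfide bonds, while high glycine-tyrosine members are small proteins of the hair cortex that are in general switched on early as shaft cells differentiate. The underside of the mouse paw is hairless, and haired skin adjoins it.

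The study compared PACAP with vehicle in mice with and without PAC1R, the receptor encoded by Adcyap1r1, to ask which genes respond in skin with eccrine sweat glands. The 4 comparisons were WT (C57BL/6J) and PAC1R KO (Adcyap1r1-/-, labelled with the same strain) mice at 30 and 60 min. All mice were 9 to 10 weeks old, were anaesthetised and received 5 µL into the centre of the footpad, either of 1e-07 mol/L PACAP in saline with BSA or of that vehicle alone, and the tissue is labelled as palm skin. PACAP and vehicle RNA of a comparison were put together on Agilent 2-colour arrays, 2 for each comparison with the dyes swapped, which gave 8 RNA samples on 8 arrays.

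The arrays of a pair carry the same RNA, so they were averaged and count as a single replicate, and the spread between animals is not known for any comparison. The study's methods state how many mice of each genotype were injected and that tissues were ground individually, but how many mice entered each RNA sample is not given in the sources used here. Spots well above background made up 78.6% to 94.5% of an array in red and 54.0% to 65.3% in green, and the number of arrays limits the precision. WT arrays lay on 1 slide with 1 scan and KO arrays on another, so slide, scan and genotype cannot be told apart. Adcyap1r1 had log2 levels of 8.28 (vehicle) and 8.27 (PACAP) in WT skin at 30 min, 8.67 and 8.76 in WT skin at 60 min, 7.98 and 7.91 in KO skin at 30 min, and 8.56 and 8.42 in KO skin at 60 min. The WT and KO ranges overlap, and which part of the gene is deleted is not given in the sources used here, so this probe does not check the genotype labels. Markers of hairless palm epidermis had median levels between 15.1 and 15.9 in all 8 samples, and those of skeletal muscle between 12.96 and 14.29.

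Ratios are given as PACAP over vehicle from the deposited log ratios. A probe is said to have risen or fallen where the mean ratio reached 2.0-fold or dropped to 0.5-fold and each of the 2 arrays had that direction and a Feature Extraction p-value below 0.01. Such a call describes 1 pair of RNA samples and not the conditions. Levels are log2 intensities of 1 RNA sample, normalized between arrays, and are compared only within a probe. Because the levels carry an offset that pulls dim values together, a difference of levels is smaller than the log2 ratio of a dim probe. In such bulk samples, fewer cells of a type and less RNA per cell cannot be told apart.

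Most members lay on 1 side of 0 within a comparison, and that side differed between the 4 comparisons: 20 of the 24 genes were below 0 in WT skin at 30 min, 22 above it in KO skin at 30 min, all 24 above it in WT skin at 60 min and all 24 below it in KO skin at 60 min. In WT mice at 30 min, 15 of 31 probes fell and 0 rose, where 0.0964% of all 39428 probes fell and 0.254% rose. In KO mice at 30 min, 26 rose and 2 fell, against 0.601% and 0.107% of all probes. In WT mice at 60 min, 29 rose and 0 fell (0.583% and 0.109% of all probes), and in KO mice at 60 min, 24 fell and 0 rose (0.15% and 0.142% of all probes). The median ratio over the 24 genes, each by its brightest probe, was 0.486-fold, 3.33-fold, 4.90-fold and 0.379-fold in that order. With Krtap19-1, whose vehicle sample was below background in WT skin at 60 min, at its lower bound there, the third median became 4.63-fold. The median log2 ratio over all probes was 0 in each comparison, and on single arrays 13.4% to 25.0% of log ratios were exactly 0. Of all probes, 46.8% lay below 0 in WT skin at 30 min, 42.7% above it in KO skin at 30 min, 38.5% above it in WT skin at 60 min and 44.0% below it in KO skin at 60 min.

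The swapped arrays gave like values. Over the 31 probes, the median difference between the log2 ratios of both arrays was 0.14 (WT) and 0.12 (KO) at 30 min and 0.17 (WT) and 0.15 (KO) at 60 min. The widest gap was at Krtap19-1 in WT skin at 60 min, at 3.37, and a Krtap20-2 probe near background was the only one of the 31 without the same sign on both arrays in every comparison. That probe passed no filter on dim signals, and the other 30 did, out of 30351 probes in all.

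**Figure D1:**
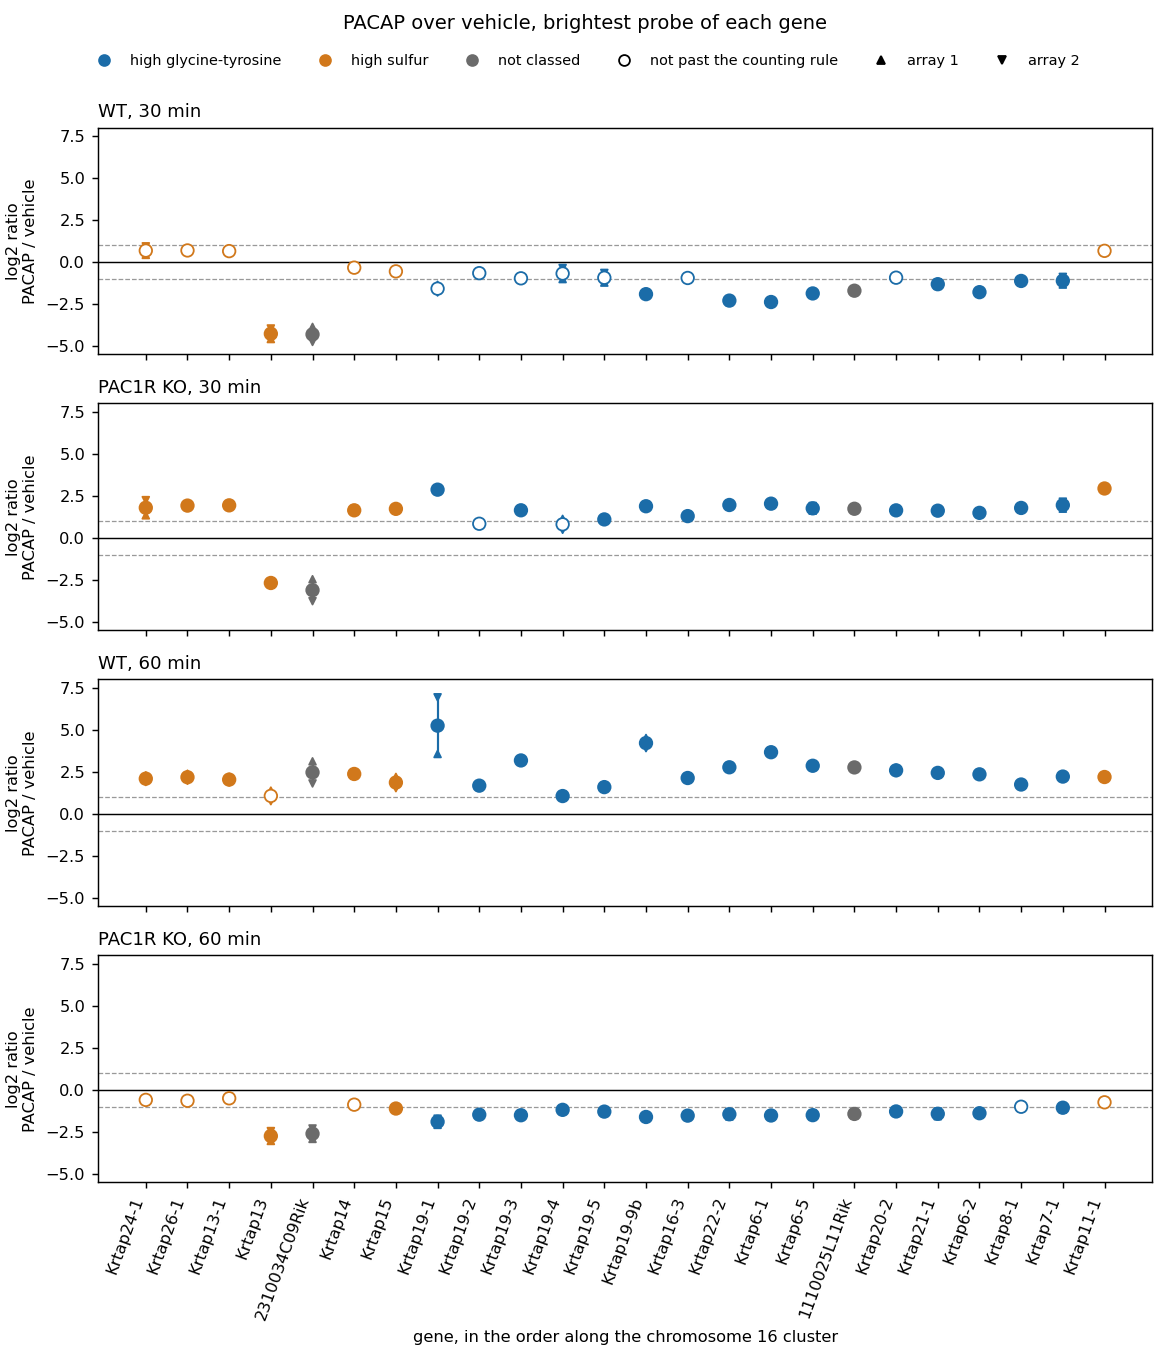
Log2 ratio of PACAP over vehicle for the brightest probe of each of the 24 genes, in their order along the cluster, in the 4 comparisons; circles are the mean of 2 arrays, triangles the single arrays, open circles did not pass the counting rule, and dashed lines mark 2.0-fold and 0.5-fold. Krtap13 and 2310034C09Rik lie below 0 in KO skin at 30 min, where the other 22 genes lie above it, and 4 high sulfur genes at the outer positions lie above 0 in WT skin at 30 min.

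Among high glycine-tyrosine genes, 11 of 20 probes fell in WT skin at 30 min, 17 rose in KO skin at 30 min, 19 rose in WT skin at 60 min and 19 fell in KO skin at 60 min. All 15 genes lay on the same side of 0 within each comparison. The median ratios were 0.458-fold, 3.13-fold, 5.44-fold (5.13-fold with Krtap19-1 at its bound) and 0.367-fold. The call pattern of falling in WT skin at 30 min, rising in KO skin at 30 min and in WT skin at 60 min, and falling in KO skin at 60 min was met by 24 probes on the whole array, of which 12 were member probes, or 38.7% of the members. Among the other 12 were Krtap1-5 and several predicted genes such as Gm10061, Gm10228 and Gm10229.

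All 3 Krtap6 genes showed this pattern. Krtap6-1 had a level of 9.36 with vehicle and 7.52 with PACAP in WT skin at 30 min, 8.0 and 9.76 in KO skin at 30 min, 7.28 and 10.26 in WT skin at 60 min, and 11.63 and 10.15 in KO skin at 60 min. Its lowest sample was thus WT vehicle at 60 min and its highest KO vehicle at 60 min. The ratio was 0.192-fold in WT skin at 30 min (0.184 and 0.201 on the single arrays), 4.12-fold in KO skin at 30 min (3.95 and 4.29), 12.8-fold in WT skin at 60 min (12.6 and 12.9) and 0.349-fold in KO skin at 60 min (0.33 and 0.369).

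Krtap6-5, which is printed on 10 spots of each array, had levels of 9.06 and 7.64 (vehicle and PACAP) in WT skin at 30 min, 8.10 and 9.66 in KO skin at 30 min, 7.58 and 9.92 in WT skin at 60 min, and 11.46 and 10.01 in KO skin at 60 min. For Krtap6-2 they were 10.89 and 9.25, 9.74 and 11.16, 9.45 and 11.68, and 13.01 and 11.66 in the same order. Over the 3 Krtap6 genes the ratio ran from 0.192-fold to 0.289-fold in WT skin at 30 min, from 2.82-fold to 4.12-fold in KO skin at 30 min, from 5.13-fold to 12.8-fold in WT skin at 60 min, and from 0.349-fold to 0.383-fold in KO skin at 60 min. These 3 genes were spread most widely in WT skin at 60 min and lay closest together in KO skin at 60 min.

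1110025L11Rik, the unclassed gene that lies next to Krtap6-5, moved as they did. Its brighter probe stood at 12.26 and 10.61 in WT skin at 30 min, 10.80 and 12.48 in KO skin at 30 min, 10.25 and 13.03 in WT skin at 60 min, and 14.27 and 12.84 in KO skin at 60 min. Ratios were 0.306-fold, 3.34-fold, 6.82-fold and 0.372-fold, all past the counting rule. The other probe of the gene was also called in each comparison, with log2 ratios of -2.26, 1.75, 3.79 and -1.57 against -1.71, 1.74, 2.77 and -1.43 for the brighter.

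The same pattern held for Krtap22-2, whose levels were 11.26 and 9.15 in WT skin at 30 min, 9.62 and 11.49 in KO skin at 30 min, 9.25 and 11.89 in WT skin at 60 min, and 13.17 and 11.79 in KO skin at 60 min. Krtap21-1 had levels of 11.21 and 10.01, 9.79 and 11.35, 9.80 and 12.18, and 13.37 and 11.93 in that order. The ratios of Krtap22-2 were 0.204-fold, 3.90-fold, 6.86-fold and 0.367-fold, and those of Krtap21-1 0.401-fold, 3.08-fold, 5.44-fold and 0.374-fold. For both genes the KO vehicle sample at 60 min was the brightest of the 8.

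Krtap7-1 and Krtap8-1 lie beside each other towards the distal end of the cluster. Krtap7-1 had levels of 7.79 and 7.15 in WT skin at 30 min, 6.88 and 8.15 in KO skin at 30 min, 7.13 and 8.70 in WT skin at 60 min, and 9.45 and 8.52 in KO skin at 60 min, and it was called in all 4 comparisons, at 0.462-fold, 3.87-fold, 4.68-fold and 0.481-fold. Krtap8-1 had levels of 9.88 and 8.92, 8.87 and 10.54, 9.12 and 10.74, and 11.82 and 10.90. It fell to 0.458-fold in WT skin at 30 min and rose 3.45-fold and 3.37-fold in KO skin at 30 min and WT at 60 min, but its 0.501-fold in KO skin at 60 min just missed the threshold. With normexp and loess the falls of Krtap8-1 and Krtap7-1 in WT skin at 30 min (log2 ratios of -0.96 and -0.64) and of Krtap7-1 in KO skin at 60 min (-0.94) missed it as well.

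Krtap20-2 had a mean level of 13.01 at its brightest probe. That probe stood at 13.09 and 12.18 in WT skin at 30 min, 11.49 and 13.13 in KO skin at 30 min, 11.50 and 14.06 in WT skin at 60 min, and 14.94 and 13.72 in KO skin at 60 min. It rose 3.12-fold and 6.05-fold in KO skin at 30 min and WT at 60 min, fell to 0.412-fold in KO skin at 60 min, and at 0.524-fold in WT skin at 30 min was not called. The gene has 4 probes, and in WT skin at 30 min 1 of them fell, at a log2 ratio of -1.87, where the bright probe was at -0.93. The probe near background was not above it in either sample at 30 min, and it was called down in KO skin at 60 min, at 0.25-fold, which with normexp and loess was a log2 ratio of -0.49.

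Krtap19 has 6 genes here, the most of any family. Krtap19-9b had the widest range of levels of all members, 4.67 over the 8 samples: 9.16 and 7.67 in WT skin at 30 min, 8.02 and 9.66 in KO skin at 30 min, 7.00 and 10.11 in WT skin at 60 min, and 11.67 and 10.17 in KO skin at 60 min. It fell to 0.266-fold, rose 3.70-fold and 18.6-fold (22.9 and 15.1 on the single arrays), and fell to 0.329-fold. By their brightest probes, 1 of the 6 genes fell in WT skin at 30 min, 4 rose in KO skin at 30 min, 6 rose in WT skin at 60 min and 6 fell in KO skin at 60 min.

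Krtap19-3 had levels of 8.69 and 7.94 in WT skin at 30 min, 8.20 and 9.66 in KO skin at 30 min, 7.42 and 9.85 in WT skin at 60 min, and 11.54 and 10.13 in KO skin at 60 min. Its ratio in WT skin at 30 min was 0.511-fold and was not called, and the others were 3.13-fold, 9.09-fold and 0.353-fold. Levels of Krtap19-5 were 8.39 and 7.75, 7.70 and 8.56, 7.74 and 9.0, and 10.23 and 9.02. Of its pair of probes, 1 fell in WT skin at 30 min, at a log2 ratio of -1.18 against -0.94 for the other, and both were called in the other 3 comparisons, where the brighter was at 2.15-fold, 3.03-fold and 0.41-fold. With normexp and loess the log2 ratio of that fall was -0.81 and that of the 2.15-fold rise 0.85, both short of the threshold.

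Krtap19-2 and Krtap19-4 were called at 60 min and not at 30 min. Krtap19-2 stood at 12.56 and 11.92 in WT skin at 30 min, 11.71 and 12.55 in KO skin at 30 min, 11.50 and 13.17 in WT skin at 60 min, and 14.30 and 12.90 in KO skin at 60 min. Krtap19-4 stood at 9.88 and 9.29, 8.32 and 9.02, 8.71 and 9.73, and 10.62 and 9.52. At 30 min the ratios were 0.631-fold and 0.622-fold in WT, and 1.80-fold and 1.76-fold in KO. At 60 min they rose 3.22-fold and 2.10-fold in WT and fell to 0.361-fold and 0.441-fold in KO.

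Krtap19-1 was dim, with levels of 6.34 and 6.13 in WT skin at 30 min, 6.04 and 6.63 in KO skin at 30 min, 5.94 and 7.01 in WT skin at 60 min, and 8.24 and 6.95 in KO skin at 60 min. The vehicle sample of WT at 60 min was not well above background on either array, so this rise is given as at least 1.97-fold, from the lowest signals that were well above background. The single arrays gave 11.9-fold and 123-fold from the processed signals. In WT skin at 30 min it was at 0.334-fold and not called, with each sample above background on 1 of 2 arrays. In KO mice it rose 7.34-fold at 30 min, with 1 of 2 arrays above background for vehicle, and fell to 0.27-fold at 60 min. With normexp and loess its log2 ratio in KO skin at 30 min was 0.59, under 2.0-fold.

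Krtap16-3, a neighbour of the Krtap19 genes, had levels of 11.94 and 11.02 in WT skin at 30 min, 10.89 and 12.15 in KO skin at 30 min, 10.59 and 12.67 in WT skin at 60 min, and 13.95 and 12.47 in KO skin at 60 min. It rose 2.46-fold and 4.41-fold and fell to 0.347-fold in the last 3, and at 0.518-fold in WT skin at 30 min was not called. Its probe and that of Krtap19-2 share a run of 25 of 60 bases, the longest between probes of different members. Of 455 such pairs, this 1 shared 20 bases or more.

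Fewer high sulfur probes were called in WT skin at 30 min and in KO skin at 60 min than in the other comparisons. Of 8 probes for 7 genes, 1 fell in WT skin at 30 min, 7 rose and 1 fell in KO skin at 30 min, 7 rose in WT skin at 60 min, and 2 fell in KO skin at 60 min. Krtap24-1, Krtap26-1 and Krtap13-1 at the proximal end and Krtap11-1 at the distal end shared a course: none of their 5 probes was called in WT skin at 30 min or KO at 60 min, and all 5 rose in the other comparisons. In WT skin at 30 min the 4 genes lay between 1.57-fold and 1.61-fold, and in KO skin at 60 min between 0.601-fold and 0.709-fold. They were grouped here for that course, so it is a description. The 15 high glycine-tyrosine genes lay between 0.192-fold and 0.631-fold and between 0.27-fold and 0.501-fold in these comparisons respectively. Of the other high sulfur genes, Krtap14 (0.792-fold) and Krtap15 (0.68-fold) also lay above that range in WT skin at 30 min, where Krtap13 has only a bound of at least 2.18-fold lower, while in KO skin at 60 min Krtap14 (0.546-fold) lay above it, Krtap15 (0.465-fold) within it and Krtap13 (0.15-fold) below it. The classes were set with these values known, and with 1 pair of RNA samples per comparison the difference between classes was not tested.

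Krtap11-1 had levels of 9.20 and 9.85 in WT skin at 30 min, 8.23 and 10.90 in KO skin at 30 min, 9.05 and 11.15 in WT skin at 60 min, and 12.09 and 11.37 in KO skin at 60 min. Its rise of 7.70-fold in KO skin at 30 min (8.10 and 7.32 on the single arrays) exceeded its 4.59-fold in WT skin at 60 min, and its other probe gave log2 ratios of 2.99 and 2.17 there. Krtap26-1 stood at 8.64 and 9.26, 7.98 and 9.68, 8.67 and 10.66, and 11.13 and 10.53. This gene rose 3.80-fold in KO skin at 30 min and 4.55-fold in WT skin at 60 min.

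Krtap13-1 had levels of 8.61 and 9.20 in WT skin at 30 min, 7.66 and 9.25 in KO skin at 30 min, 8.19 and 9.96 in WT skin at 60 min, and 10.63 and 10.14 in KO skin at 60 min. It rose 3.84-fold and 4.13-fold in KO skin at 30 min and WT at 60 min. Krtap24-1 was dim, at 6.54 and 6.75, 6.17 and 6.66, 6.61 and 7.49, and 7.85 and 7.45. It rose 3.48-fold and 4.29-fold, with the vehicle sample well above background on 1 of 2 arrays both times. With normexp and loess both calls were lost, at log2 ratios of 0.49 and 0.88.

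Between these and the Krtap19 genes lie Krtap14 and Krtap15. Krtap14 had levels of 7.80 and 7.62 in WT skin at 30 min, 7.5 and 8.79 in KO skin at 30 min, 7.03 and 8.64 in WT skin at 60 min, and 9.78 and 8.96 in KO skin at 60 min. Krtap15 had levels of 7.06 and 6.81, 6.68 and 7.59, 6.72 and 7.61, and 8.51 and 7.72. In WT skin at 30 min they were at 0.792-fold and 0.68-fold and not called, and in KO skin at 60 min Krtap14 was at 0.546-fold, not called, and Krtap15 fell to 0.465-fold. Both rose in KO skin at 30 min, 3.13-fold and 3.33-fold, and in WT skin at 60 min, 5.2-fold and 3.66-fold. With normexp and loess the 3 calls of Krtap15 were lost, at log2 ratios of 0.91 and 0.89 in those comparisons and -0.79 in KO skin at 60 min.

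Krtap13, of the high sulfur families, and its neighbour 2310034C09Rik stood apart from the rest. 2310034C09Rik had levels of 8.17 and 6.32 in WT skin at 30 min, 7.04 and 6.18 in KO skin at 30 min, 6.20 and 6.84 in WT skin at 60 min, and 7.82 and 6.39 in KO skin at 60 min. Krtap13 stood at 7.22 and 6.06, 6.52 and 5.95, 5.97 and 6.26, and 7.03 and 6.11. Both were brightest in the WT vehicle sample at 30 min, where each of the other 29 probes was brightest in the KO vehicle sample at 60 min.

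2310034C09Rik fell to 0.0506-fold in WT skin at 30 min (0.0689 and 0.0371 on the single arrays), to 0.116-fold in KO skin at 30 min and to 0.165-fold in KO skin at 60 min, and rose 5.55-fold in WT skin at 60 min (8.76 and 3.52). The PACAP sample of both pairs at 30 min, and the vehicle sample of WT skin at 60 min, were above background on 1 of 2 arrays. Krtap13 fell in the same 3 comparisons. In WT skin at 30 min its PACAP sample was not well above background on either array, so it was at least 2.18-fold lower there, with log2 ratios of -4.58 and -3.95 from the processed signals. It fell to 0.157-fold in KO skin at 30 min and to 0.15-fold in KO skin at 60 min, with the PACAP sample above background on 1 of 2 arrays, and its 2.11-fold in WT skin at 60 min was not called, with Feature Extraction p-values of 0.119 and 0.31.

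The size of these changes depends on how dim signals are handled. With normexp background correction and loess, the log2 ratios of Krtap13 were -1.17 in WT skin at 30 min, -0.57 in KO skin at 30 min and -0.92 in KO skin at 60 min, and those of 2310034C09Rik -1.84, -0.86 and -1.43. The rise of 2310034C09Rik in WT skin at 60 min was 0.65 on that scale, under 2.0-fold. Krtap13 did not pass 0.5-fold in KO skin at 60 min, and neither gene passed it in KO skin at 30 min, although both stayed below 0 where the other 22 genes were above it. Only 3 probes on the whole array were called down in WT skin at 30 min, KO at 30 min and KO at 60 min, and these were Krtap13, 2310034C09Rik and Krt36, a type I hair keratin. Krt36 had levels of 10.92 and 8.06 in WT skin at 30 min, 9.36 and 8.36 in KO skin at 30 min, 7.77 and 9.80 in WT skin at 60 min, and 10.63 and 8.78 in KO skin at 60 min.

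Krtap13 and 2310034C09Rik lie head to head, with starts 7219 bases apart in GRCm38.p6, and their promoters are alike. In RefSeq's promoter table for that build, 250 bases before and 50 after each start, a promoter was found for 23 of the 24 genes. These 2 promoters share an unbroken run of 102 bases, where the median longest run over 253 pairs of members was 9 bases and 3 pairs shared 40 or more. The others were Krtap19-1 with Krtap19-2 (56 bases) and Krtap6-1 with 1110025L11Rik (47 bases). By identity over 250 bases, Krtap19-1 and Krtap19-2 were the most alike at 91.0%, against 77.2% for Krtap13 with 2310034C09Rik and a median of 49.8% over pairs. Whether likeness of promoters goes with likeness of ratios was not tested. The 100 bases before the start are shown for the pair that stood apart, for Krtap13-1 as their high sulfur neighbour, and for Krtap6-1 and 1110025L11Rik, with TATAAA in capitals. They lie at chr16:88751629-88751728 (minus strand), chr16:88758747-88758846 (plus), chr16:88728762-88728861 (plus), chr16:89031599-89031698 (plus) and chr16:89064003-89064102 (minus) of GRCm38.p6 in the order printed.
Krtap13: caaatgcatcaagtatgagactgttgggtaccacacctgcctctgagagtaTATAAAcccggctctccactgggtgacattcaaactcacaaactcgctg
2310034C09Rik: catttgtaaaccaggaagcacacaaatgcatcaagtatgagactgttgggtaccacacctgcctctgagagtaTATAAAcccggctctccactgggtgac
Krtap13-1: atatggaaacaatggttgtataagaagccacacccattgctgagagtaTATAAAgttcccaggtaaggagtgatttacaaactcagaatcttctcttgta
Krtap6-1: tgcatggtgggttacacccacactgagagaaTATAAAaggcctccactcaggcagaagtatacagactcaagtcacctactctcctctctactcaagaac
1110025L11Rik: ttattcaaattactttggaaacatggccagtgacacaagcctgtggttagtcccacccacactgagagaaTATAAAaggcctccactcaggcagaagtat

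The capitals start 49 bases before the start in Krtap13 and 27 before it in 2310034C09Rik, within the same run of letters. On either strand of the 250 bases before the start, TATAAA, the core of the TATA box, was found in 17 of 23 member promoters (73.9%), against 12.4% of all 32851 promoters. It was found in 24 of 27 promoters of Krtap genes outside chromosome 16 (88.9%). The letters CTTTGA, a core bound by LEF1, were found in 8 of 23 (34.8%, against 13.8% of all and 14.8% of the Krtap promoters outside chromosome 16) and GACGC, a core bound by FOXN1, in 1 of 23 (4.35%, against 22.6% and 7.41%). CTTTGA and GACGC can share the letters GA, and a match describes the sequence only.

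The levels show which sample of a pair differed from the others. The median level of the 24 genes was 9.11 with vehicle and 8.43 with PACAP in WT skin at 30 min, 7.96 and 10.03 in WT skin at 60 min, 8.06 and 9.66 in KO skin at 30 min, and 11.50 and 10.15 in KO skin at 60 min. The lowest sample was WT vehicle at 60 min for 13 of 31 probes and KO vehicle at 30 min for 14. A member probe ranged over a median of 3.36 on the log2 scale across the 8 samples, against 0.42 for all probes that passed the filter.

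The KO vehicle sample at 60 min set much of the range of the members' levels. For all 24 genes the range over the 4 vehicle samples was wider than that over the 4 PACAP samples, which held for 38.0% of the 30351 filtered probes. Without the KO vehicle sample at 60 min it held for 4 of 24 genes and 24.4% of filtered probes, with median ranges of 1.26 (vehicle) and 1.54 (PACAP). Without both samples of that pair it held for the same number of genes and 33.3% of filtered probes. Leaving out any other single sample it held for all 24, and for between 24.5% and 64.0% of filtered probes. Leaving out 1 sample sets a range over 3 samples against one over 4, which can by itself narrow the first. The genes share these samples, so they are not separate observations. With all samples the median range was 3.06 among vehicle and 1.54 among PACAP samples, where all filtered probes had medians of 0.29 and 0.36. High glycine-tyrosine genes had median ranges of 3.46 and 1.99, and high sulfur genes 2.75 and 0.94.

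**Figure D2:**
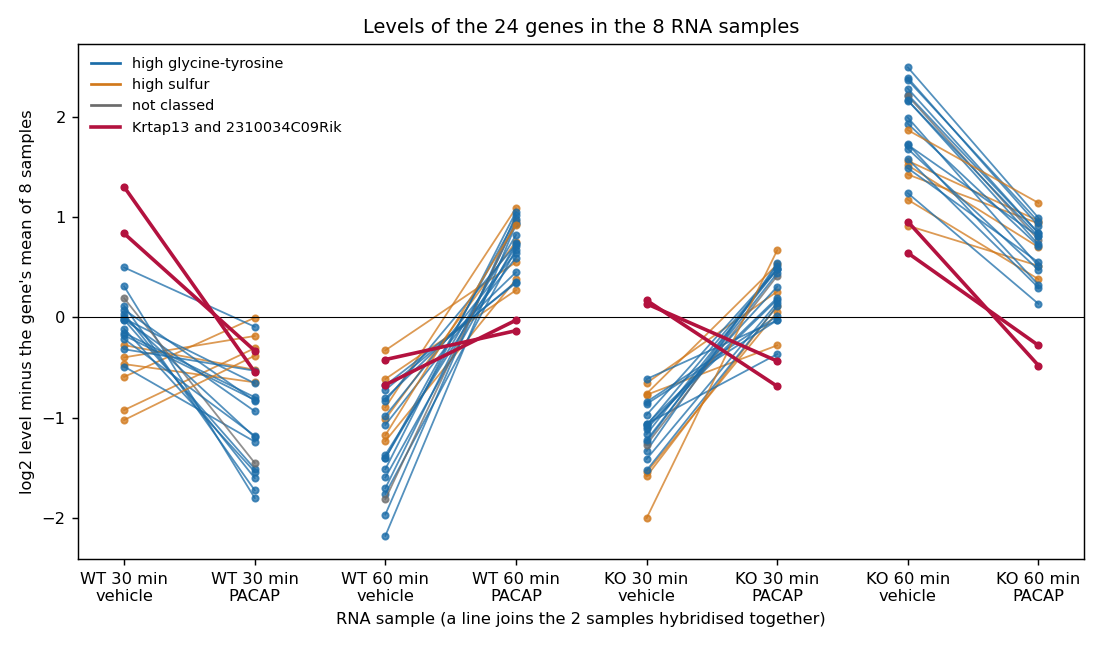
Level of each of the 24 genes in the 8 RNA samples, as log2 intensity minus the gene's mean over the samples; lines join the vehicle and PACAP samples hybridised together and colours give the class. Most genes are highest in KO vehicle at 60 min, and Krtap13 and 2310034C09Rik, drawn in red, are highest in WT vehicle at 30 min.

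**Figure D3:**
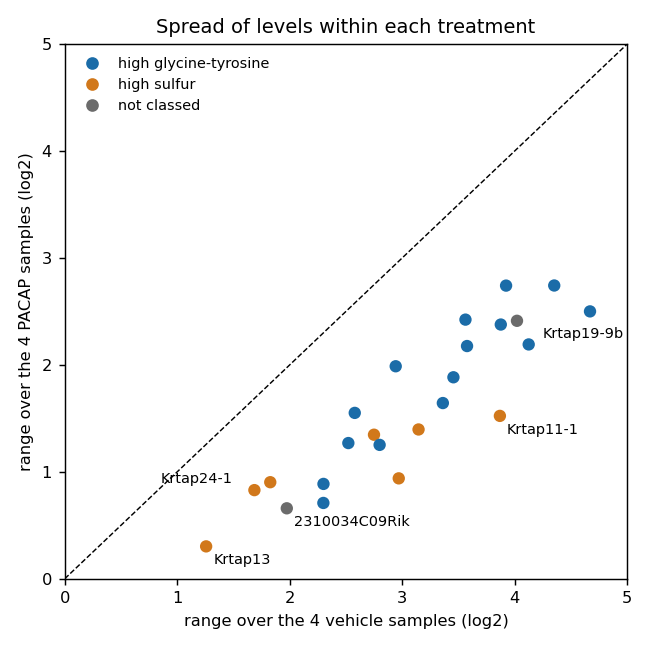
Range of log2 levels over the 4 vehicle samples (horizontal) and the 4 PACAP samples (vertical) for each of the 24 genes, with colours for the class and a dashed line where both are equal. All 24 points lie below the line, and without the KO vehicle sample at 60 min 4 of 24 would.

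Whether the changes were shared across comparisons was tested with limma (lmFit and eBayes, Benjamini-Hochberg adjustment over 30351 probes), on 1 value per comparison. The mean ratio of the 4 comparisons was past the adjusted threshold at 0 of 30 member probes and at 0.0% of all probes. At an unadjusted p below 0.05 there were 2 members and 678 probes in all, and the members were Krtap13 (mean log2 ratio -2.15 ± 0.786 SE, adjusted p = 1.0) and Krtap13-1 (1.03 ± 0.421 SE, adjusted p = 1.0). The mean of Krtap13 includes WT skin at 30 min, where its PACAP sample gives only a bound, and with normexp and loess 0 members were at an unadjusted p below 0.05. The ratio in KO against WT was called at 0 members and 0.0% of probes, with 0 members among the 972 probes at an unadjusted p below 0.05. The ratio at 60 against 30 min was likewise called at 0 members and 0.0% of probes, with 0 members among 483. The SE of a member's log2 difference reached 2.41 in the first of these fits and 2.51 in the second. The members' median ratio changed direction between the times in each genotype, so the fits above average ratios of opposite direction. Their residual spread holds that change, and 0 calls do not show that the ratios were alike. A fit of genotype by time would leave no residual degree of freedom and was not run.

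Levels were also fitted over the 8 RNA samples with genotype, time and treatment as terms. The 2 samples of a pair share arrays, so these p-values are too small, and they measure only the spread between these samples. In KO against WT, 28 of 30 member probes were higher, with a median log2 difference of 0.81, and limma called 0 of them (adjusted p from 0.22 to 0.978, 0 at an unadjusted p below 0.05). Of all probes, 10.2% were called and 30.9% were at an unadjusted p below 0.05. Single samples moved this median: it was 0.20 without KO vehicle at 60 min, 0.25 without WT vehicle at 60 min, 1.25 without WT vehicle at 30 min and 1.29 without KO vehicle at 30 min. They also moved the calls over all probes, to 0 higher and 0 lower without WT vehicle at 30 min and to 1948 and 2075 without KO PACAP at 30 min. With the hybridised pair as a block these were 633 and 643. At 60 against 30 min, 28 of 30 were higher, with a median of 1.1, and 0 were called (adjusted p from 0.0855 to 0.886), where 16.1% of all probes were. That median was 0.49 without KO vehicle at 60 min, 0.60 without KO vehicle at 30 min and 1.75 without WT vehicle at 60 min. Calls over all probes ran from 268 higher and 33 lower without KO vehicle at 60 min to 5024 and 6030 without KO PACAP at 30 min. With all samples, Krtap24-1 (0.82 ± 0.262 SE, limma adjusted p = 0.0855) and Krtap26-1 (1.35 ± 0.5 SE, limma adjusted p = 0.119) were the 2 of 30 members at an unadjusted p below 0.05, where 34.7% of all probes were. Without WT vehicle at 60 min that number became 26 of 30 (smallest limma adjusted p = 0.0561), against 26.4% of all probes. Without WT vehicle at 30 min it became 6 of 30, against 27.5%.

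Other genes of the hair shaft and its sheath moved in part with the cluster. Krtap genes outside chromosome 16, 31 genes on 36 probes, had 3 probes rise and 1 fall in WT skin at 30 min, 20 rise in KO skin at 30 min, 27 rise in WT skin at 60 min and 1 fall in KO skin at 60 min. Their median log2 ratios were -0.12, 1.1, 1.74 and -0.33, against -1.04, 1.74, 2.29 and -1.40 for the cluster. The 3 brightest of them differed: Krtap10-4 lay between 0.919-fold and 1.1-fold in all 4 comparisons, while Krtap5-2 rose 4.34-fold in KO skin at 30 min and 4.85-fold in WT skin at 60 min, and Krtap5-3 rose 2.36-fold in WT skin at 60 min alone.

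Hair shaft keratins, with 15 genes on 20 probes, had 4 probes rise and 3 fall in WT skin at 30 min, 10 rise and 1 fall in KO skin at 30 min, 14 rise in WT skin at 60 min and 2 fall in KO skin at 60 min, with median log2 ratios of 0.21, 1.36, 2.02 and -0.52. Krt86, a shaft keratin, rose 2.58-fold in KO skin at 30 min and 4.89-fold in WT skin at 60 min and was at 1.18-fold and 0.736-fold in the other comparisons. Krt84 fell to 0.408-fold in WT skin at 30 min, and Krt85 lay between 0.879-fold and 1.09-fold throughout. Inner root sheath genes, 11 on 12 probes, had medians of 0.44, 1.06, 2.33 and -0.50 and 2, 6, 9 and 0 probes that rose, with none called down. Trichohyalin (Tchh) rose 2.21-fold, 2.51-fold and 5.71-fold and was at 0.911-fold in KO skin at 60 min, and Krt71 and Krt27 rose 2.50-fold and 2.65-fold in KO skin at 30 min and 6.09-fold and 5.28-fold in WT skin at 60 min.

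Regulators of the hair cortex and matrix, listed together with S100a3 and Selenbp1, and genes of the dermal papilla were not called in any comparison, at 14 and 9 probes. Median log2 ratios of the 13 genes of the first list lay between -0.12 and 0.02, and of the 7 dermal papilla genes between -0.19 and 0.15. S100a3, a calcium-binding protein of the hair cuticle, was at 1.82-fold in WT skin at 60 min and 0.742-fold in KO skin at 60 min. Selenbp1 lay between 0.848-fold and 1.01-fold and the transcription factor Prdm1 between 0.843-fold and 1.14-fold. Crabp1, Hhip and Rspo3 were at 1.45-fold, 0.793-fold and 0.778-fold in KO skin at 30 min.

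Markers of other tissues moved at the same time in some comparisons, and their part in the result was not tested. The 11 skeletal muscle genes had median log2 ratios of 0.86 in WT skin at 30 min and -0.81 in KO skin at 30 min, opposite to the cluster, but -0.03 and 0.04 at 60 min, where the cluster was at 2.29 and -1.40. Their summed log2 intensity was 16.95 and 17.89 (vehicle and PACAP) in WT skin at 30 min, 17.54 and 16.81 in KO skin at 30 min, and between 17.36 and 17.52 in the 4 samples at 60 min. Of 15 muscle probes, 3 rose in WT skin at 30 min and 3 fell in KO skin at 30 min, and Tnni2, Myl1 and Pvalb were at 1.93-fold, 1.83-fold and 1.75-fold in the first and 0.624-fold, 0.706-fold and 0.683-fold in the second.

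The 6 genes of hairless palm epidermis had medians of 0.14, -0.74, 0.16 and 0.18 in the same order of comparisons. In KO skin at 30 min 3 of 8 probes fell, and Krt1 was at 0.455-fold, Lor at 0.572-fold and Krt2 at 0.634-fold. Their summed log2 intensity was 18.33 and 17.44 in that pair and between 17.81 and 18.02 in the other 6 samples. Liver genes, 9 measured, had medians of -0.07, 0.32, -1.67 and 0.10, with 8 of 12 probes down in WT skin at 60 min, where Serpina1a fell to 0.267-fold and Ahsg and Apoa2 were at 0.675-fold and 0.816-fold. Their summed log2 intensity was 11.75 in the WT vehicle sample at 60 min and between 10.94 and 11.29 in the other 7. The 8 cartilage and bone genes had medians between -0.25 and -0.01, with 1 (WT) and 2 (KO) probes down at 30 min, and Comp, Col2a1 and Bglap were at 0.676-fold, 1.72-fold and 1.31-fold in KO skin at 30 min. Every measured gene of these lists was above background on at least 1 array.

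**Figure D4:**
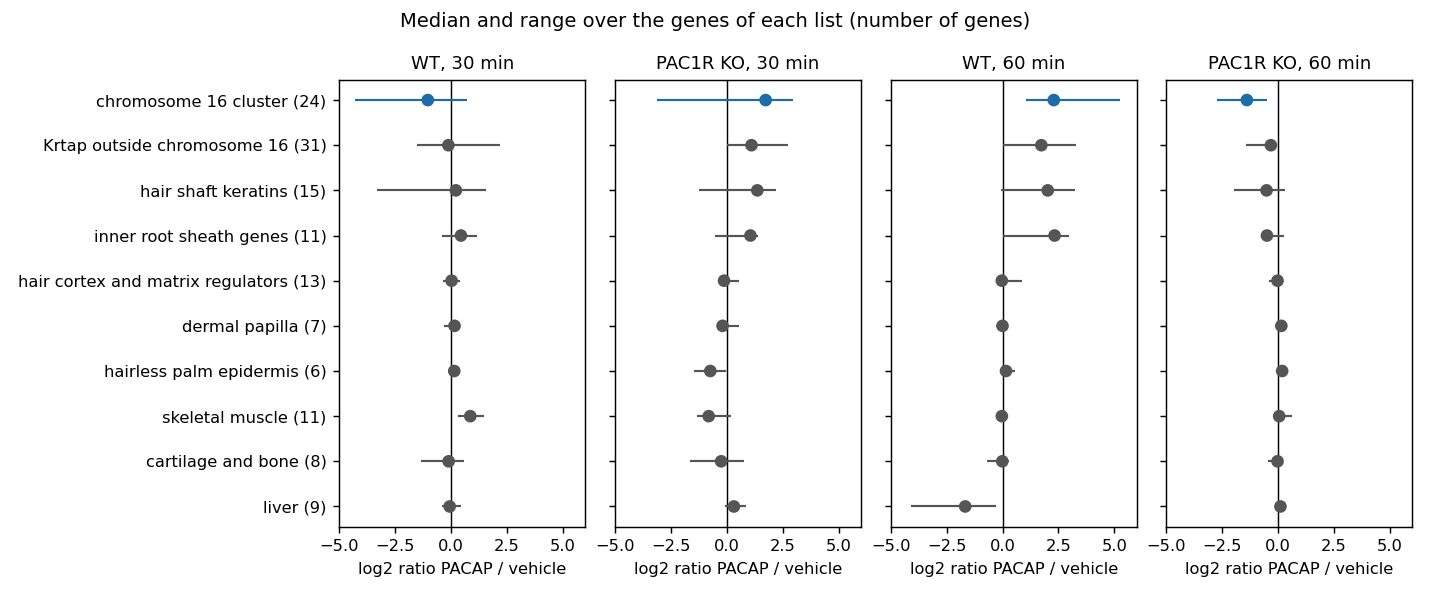
Median (point) and range (line) of the log2 ratio of PACAP over vehicle over the genes of each list in the 4 comparisons, with the number of genes in brackets. The cluster has the lowest or highest median of the hair lists in each comparison except WT at 60 min, where inner root sheath genes are at 2.33 and the cluster at 2.29.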

How the data were processed

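RNA of mouse palm skin was measured on 8 Agilent 4x44K 2-colour arrays. The authors scanned them and ran Feature Extraction (12.0.3.1 in the file headers, 11.0.1.1 in the submitters' processing notes). The deposited log10 ratios and processed intensity values are background-corrected and LOWESS-normalized within arrays, and the deposited p-value of a spot speaks of 1 array. The authors' series matrix holds the log10 ratio of the processed signals. Control spots (1377) and outlier spots (198 to 342 per array) were left out, and 0 spots were saturated. Ratios were turned to PACAP over vehicle by dye, expressed as log2, and averaged over spots and over both arrays. Levels are log2 intensities computed here from the deposited mean signals and local backgrounds by normexp (offset 50), loess and Aquantile. Fits used limma 3.58.1 in R 4.3.3, on the 30351 probes that every array measured well above background in red or green, with an adjusted p threshold of 0.05. Python 3.11.15 with pandas 2.3.3, numpy 2.4.6, biopython 1.88 and matplotlib 3.10.9 was used for the rest, and the steps were tested on simulated data.

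All 24 members are named with values per sample, by the brightest probe unless stated. Of other genes, Adcyap1r1 and the 3 brightest of each list are named, and Krt36, Krtap1-5 and the Gm genes were chosen after their values were seen. The members and lists were chosen with earlier results of these data known. A class was planned from protein composition, but protein sequences were not used here, so families were classed by name after the values were seen. Probe coordinates are mm9 and promoters GRCm38.p6, and neither was converted. Alternatives were single arrays, other filters and p rules, normexp and loess ratios, median centring, outliers kept, the series matrix ratios, covariates, a hybridised pair as a block, and leaving out a comparison or sample.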

Additional observations from a re-analysis of the deposited data

Results flagged for a closer look

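The median log2 ratio of the 24 genes changed sign between comparisons, on both arrays of each. From 30 to 60 min it differed by 3.33 in WT mice and by -3.14 in KO mice. Between KO and WT mice it differed by 2.78 at 30 min and by -3.69 at 60 min. With 1 pair of RNA samples per comparison, none of these differences was tested.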

How the results depend on the processing

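Of the 96 single probe values past the counting rule, 0 changed sign under any alternative. For single arrays the rule fixed this, as it asks for the same direction on both, and the series matrix holds the same ratios. Median centring moved 1 value and keeping outliers 0, so normexp and loess was the alternative that could have shown a change of sign. With normexp and loess ratios 72 of 96 moved, all in the same direction: the median absolute change of called probes went from 3.65-fold to 2.69-fold in WT at 30 min, from 3.42-fold to 2.84-fold in KO at 30 min, from 5.15-fold to 4.22-fold in WT at 60 min and from 2.75-fold to 2.58-fold in KO at 60 min. The median log2 ratios over genes became -0.83, 1.44, 1.88 and -1.25 in that order, and 16 of the 96 values no longer reached the fold threshold: 12 of 15 probes still fell in WT at 30 min, 22 of 26 rose and 0 of 2 fell in KO at 30 min, 26 of 29 rose in WT at 60 min and 20 of 24 fell in KO at 60 min. Without Krtap13 and 2310034C09Rik, chosen after seeing the data, 0 probes fell in KO at 30 min as well. On single arrays the median lay between -1.17 and -0.99, 1.66 and 1.74, 2.15 and 2.37, and -1.44 and -1.29. Leaving out 1 comparison, the limma fit of KO against WT called 24 members lower without WT at 30 min (71 probes higher and 99 lower in all) and 10 higher without WT at 60 min (49 and 34 in all), with 0 called without either KO comparison, and the fit of 60 against 30 min called between 0 and 3, with 3 higher without KO at 60 min (7 and 11 in all). Such fits have 1 residual degree of freedom and assume that the lone comparison varies like the others; in the fits with 24 and 10 calls the prior was infinite, so all probes shared 1 spread. The cause was not tested. Level fits called 0 members under every alternative. No paired analysis was possible because the replicate numbers mark only the dye orientation of the same RNA pair, which was averaged to 1 value. PACAP and vehicle are already paired within each ratio, and the level fits with the hybridised pair as a block are among those with 0 calls. Chosen after seeing the data, leaving out 1 sample left between 4 and 24 genes, and between 24.4% and 64.0% of filtered probes, with a wider range over vehicle than over PACAP samples. Signal over background limits Krtap13, 2310034C09Rik, Krtap19-1, Krtap24-1 and 1 probe of Krtap20-2.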
